A study of Homo sapiens with 4 samples.

Results

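The 10 genes described here are FOS, FOSB, FOSL1, FOSL2, JUN, JUNB, JUND, EGR1, DUSP1 and DUSP6, chosen by name and found by Ensembl identifier among the 50626 genes kept from the deposited expression table. All of the 10 passed the minimum level used for the comparisons, a mean of 1 FPKM over the libraries, as did 14321 genes in all. FPKM counts the sequenced fragments of a gene relative to transcript length and library size. The data comprise 4 RNA-seq libraries, with 1 library from each of 2 cell lines under each of 2 shRNAs. BT-20 and MDA-MB-468 (labelled MB-468) are established human breast cancer lines, and each was given either a control shRNA or an shRNA against QPRT, the enzyme that makes the NAD precursor nicotinic acid mononucleotide from quinolinate. By the study's methods both hairpins were delivered by lentivirus and the cells were selected with puromycin (no single clones are mentioned). The lines were grown in different media, both with serum, so line and medium cannot be told apart.

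FOS and JUN proteins pair through leucine zippers to form AP-1, a transcription factor that binds a short palindromic DNA element. FOS, FOSB, JUNB and EGR1 are among the immediate early genes. Such genes are transcribed within minutes of a growth factor, serum or stress signal without new protein synthesis. This runs mainly through ERK acting on ELK factors bound with SRF. DUSP1 and DUSP6 are phosphatases that remove the activating phosphates from MAP kinases, with DUSP1 acting on p38, JNK and ERK in the nucleus and DUSP6 on ERK in the cytoplasm. In breast cancer cells FOSL1 is known as an AP-1 subunit of invasive, basal-like cells.

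The question behind the libraries was which transcripts change when QPRT is depleted. QPRT itself stood at 249 FPKM with the control shRNA and 40.5 with the QPRT shRNA in BT-20, against 117 and 18.3 in MDA-MB-468. The ratio was 0.163 in BT-20 against 0.156 in MDA-MB-468. The scaling of the FPKM values implied between 10321998 and 10945948 fragments per library. Of the 9 breast epithelial genes, EPCAM, CDH1, EGFR, KRT5, KRT8, KRT18 and KRT19 stood at 76.1 FPKM or more in all 4 libraries. The basal keratins KRT14 (values below) and KRT17 did not. KRT17 measured 2.76 and 2.51 FPKM in BT-20 against 237 and 373 in MDA-MB-468, control shRNA first. PGR was listed at 0 in all 4 libraries. ERBB2 lay between 50.7 and 129 FPKM and ESR1 between 1.05 and 5.76. The 26 gut, gastric and plasma cell markers, of which PIGR and LYZ are also made by mammary epithelium, summed to 101 FPKM in BT-20 with control shRNA, 40.3 in BT-20 with QPRT shRNA, 239 in MDA-MB-468 with control shRNA and 45.9 in MDA-MB-468 with QPRT shRNA. Of these markers, 20 were lower with QPRT shRNA in both lines and 10 stayed under 1 FPKM everywhere. Some of the 20 rest on few fragments. For CDX1 these were 2 and 0 in BT-20 against 3 and 1 in MDA-MB-468, control shRNA first. The 14 markers above the minimum level were all lower in each line. Of all tested genes 43.0% were lower in BT-20 against 47.6% in MDA-MB-468, and the share lower in both was not counted. None of the 26 was listed at 0 in every library, and what part they have in the shRNA differences below was not tested. Where the marker RNA came from, and whether any such cells were in the cultures, was not tested. In such bulk libraries fewer cells of a type and less RNA per cell cannot be told apart. The 12 fibroblast, endothelial and leukocyte markers summed to 135 and 162 FPKM in BT-20 against 23.6 and 18.7 in MDA-MB-468, control shRNA first, mostly through CDH5 in BT-20, and PTPRC was at most 0.340 FPKM. A linear model fitted across all tested genes with limma, with an adjusted p under 0.05 as the call, called 11 of the 14 gut, gastric and plasma cell markers above the minimum level lower with QPRT shRNA, out of 52 genes called lower in all. It called 1 of the 9 breast epithelial genes higher, KRT14, out of 38 genes called higher in all. KRT14 measured 0.330 and 0.161 FPKM in BT-20 against 5.76 and 40.6 in MDA-MB-468, control shRNA first.

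Promoter sequence was available from RefSeq (GRCh38.p14) for 9 of the 10 genes, all but FOSL1. The 250 bases before the start of transcription are shown for the 4 genes whose window held a searched motif and no annotated transcript of the gene in GENCODE 29, because they show which known promoter motifs stand upstream. Capitals mark the motif matches: CArG boxes in EGR1, the site that SRF binds, the cyclic AMP response element TGACGTCA in JUND and DUSP1, and TATAAA in DUSP1 and JUNB.
EGR1, chr5:138465229-138465478, plus strand: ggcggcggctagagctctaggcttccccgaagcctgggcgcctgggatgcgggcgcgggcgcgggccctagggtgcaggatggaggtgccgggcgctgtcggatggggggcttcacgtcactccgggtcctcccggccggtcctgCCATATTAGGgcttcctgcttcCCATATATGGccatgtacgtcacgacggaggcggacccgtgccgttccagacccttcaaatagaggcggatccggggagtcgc
DUSP1, chr5:172771196-172771445, minus strand: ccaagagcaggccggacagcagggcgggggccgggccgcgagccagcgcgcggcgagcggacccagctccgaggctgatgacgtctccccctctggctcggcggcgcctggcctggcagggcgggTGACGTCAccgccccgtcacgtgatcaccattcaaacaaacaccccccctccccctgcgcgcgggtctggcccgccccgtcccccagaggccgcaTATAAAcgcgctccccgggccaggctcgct
JUND, chr19:18281623-18281872, minus strand: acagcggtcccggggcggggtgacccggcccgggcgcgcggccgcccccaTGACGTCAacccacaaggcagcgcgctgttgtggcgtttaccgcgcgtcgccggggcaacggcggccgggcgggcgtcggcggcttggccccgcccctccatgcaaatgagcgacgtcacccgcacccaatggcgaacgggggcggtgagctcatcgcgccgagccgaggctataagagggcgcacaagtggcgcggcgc
JUNB, chr19:12791236-12791485, plus strand: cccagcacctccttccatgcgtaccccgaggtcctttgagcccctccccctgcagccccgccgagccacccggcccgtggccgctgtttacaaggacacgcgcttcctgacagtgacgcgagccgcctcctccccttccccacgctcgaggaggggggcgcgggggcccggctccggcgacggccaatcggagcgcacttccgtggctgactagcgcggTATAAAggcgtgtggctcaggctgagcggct

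The search covered both strands of these windows. It used the cyclic AMP response element TGACGTCA, the AP-1 element TGANTCA, the CArG box, TATAAA and the ETS core CCGGAAG. No match of one motif overlapped a match of another in these windows. Among 35116 RefSeq promoters of the same length, 1.65% held the cyclic AMP response element, 6.57% the AP-1 element, 1.16% a CArG box, 10.7% TATAAA and 8.52% the ETS core. EGR1 held 2 CArG boxes, 105 to 96 and 83 to 74 bases before its start. The cyclic AMP response element stood 200 to 193 bases before the start of JUND and 125 to 118 before that of DUSP1. TATAAA was found 33 to 28 bases before the start in FOS, 30 to 25 in FOSB and DUSP1 and 31 to 26 in JUNB. A match describes letters only, and no binding was measured.

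On the deposited scale the genes ran from among the most abundant transcripts to scarce ones. JUND and FOS were the highest of the 10 in BT-20, at 286 and 218 FPKM with control shRNA. In MDA-MB-468 with control shRNA, FOS at 228 FPKM and EGR1 at 202 FPKM led. FOS exceeded 95.3% to 97.3% of the tested genes in the 4 libraries. FOSL1 and DUSP6 were the lowest of the 10 in every library, and DUSP6 in BT-20 with control shRNA exceeded only 17.8% of tested genes. Neighbours in the order were often close: JUN was 1.02 times DUSP1 in BT-20 with control shRNA, and FOSB 1.01 times DUSP1 in MDA-MB-468 with control shRNA. There is no replicate spread to separate such neighbours. Levels also depend on the length used, since the deposited FPKM matched the mean length of a gene's annotated transcripts, which for FOS was 1001 bases against 2158 for its longest transcript. Per longest transcript FOS was below EGR1 and JUNB in every library, at 101 FPKM against 129 and 109 in BT-20 with control shRNA, and 106 against 202 and 141 in MDA-MB-468 with control shRNA. JUND stayed first in BT-20, at 181 and 140 FPKM, and EGR1 became first in both MDA-MB-468 libraries.

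**Figure D1:**
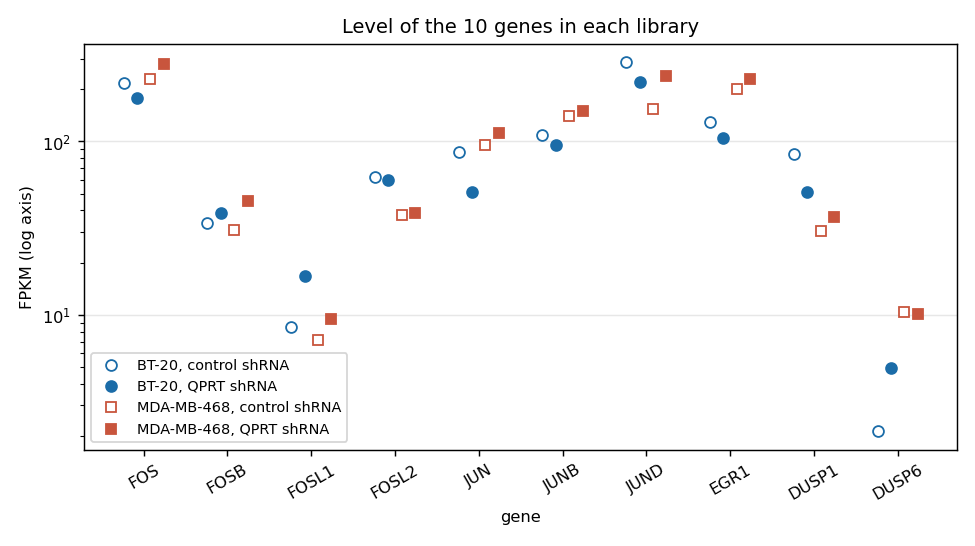
FPKM (log axis) of each of the 10 genes in each library, circles for BT-20 and squares for MDA-MB-468, open for control shRNA and filled for QPRT shRNA. DUSP6 lies lowest in BT-20 (2.13 and 4.90 FPKM), and the filled BT-20 points of JUN and DUSP1 lie below the open ones.

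FOS (ENSG00000170345, chr14:75278774-75282230, plus strand), the founding FOS family member, measured 218 FPKM in BT-20 with control shRNA and 179 with QPRT shRNA, and 228 and 280 in MDA-MB-468. Its log2(FPKM + 1) was lower with QPRT shRNA in BT-20, by a difference of -0.28, and higher in MDA-MB-468, by 0.29. Coordinates here and below are those of the gene in GENCODE 29 (GRCh38).

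FOSB (ENSG00000125740, chr19:45467995-45475179, plus strand), which pairs with JUN proteins as FOS does, measured 34.0 and 38.7 FPKM in BT-20 against 30.7 and 45.3 in MDA-MB-468, control shRNA first. Its QPRT shRNA difference in MDA-MB-468, 0.55 on the log2(FPKM + 1) scale, was above those of the other FOS family members there, and in BT-20 it was 0.18. The gene lies within ERCC1, a DNA repair gene on the opposite strand, with which it shares 0 exon bases. ERCC1 itself differed by -0.34 in BT-20 against 0.24 in MDA-MB-468.

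FOSL1 (ENSG00000175592, chr11:65892049-65900573, minus strand), which encodes FRA1, measured 8.46 and 16.8 FPKM in BT-20 against 7.14 and 9.43 in MDA-MB-468, control shRNA first. These values rest on 108, 220, 94 and 117 fragments. The BT-20 library with QPRT shRNA stood above the other 3. FOSL2 (ENSG00000075426, chr2:28392448-28417312, plus strand), which encodes FRA2, measured 62.1 and 60.2 FPKM in BT-20 against 37.7 and 38.9 in MDA-MB-468, so both BT-20 libraries were above both MDA-MB-468 libraries and the shRNAs were close within each line.

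JUN (ENSG00000177606, chr1:58780788-58784327, minus strand), the most strongly activating JUN protein, measured 86.6 and 51.1 FPKM in BT-20 against 96.0 and 112 in MDA-MB-468, control shRNA first. The BT-20 library with QPRT shRNA was the low one of the 4. JUNB (ENSG00000171223, chr19:12791496-12793315, plus strand), a weaker activator that can oppose JUN, measured 109 and 95.3 FPKM in BT-20 against 141 and 150 in MDA-MB-468. Here both MDA-MB-468 libraries were above both BT-20 libraries. How many of all tested genes kept the lines apart in this way was not counted, for JUNB or the other genes described. With control shRNA, 31.6% of all tested genes were at least 2-fold apart between the lines. HOOK2, on the opposite strand, shares 259 of the 1820 exon bases of JUNB (14.2%), and the strand setting of the authors' counting is not given in the sources used here, so reads on those bases cannot be assigned with certainty. HOOK2 measured 197 and 168 FPKM in BT-20 against 195 and 165 in MDA-MB-468.

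JUND (ENSG00000130522, chr19:18279760-18281622, minus strand), the JUN protein most often present in resting cells, measured 286 and 221 FPKM in BT-20 against 155 and 240 in MDA-MB-468, control shRNA first. The line order therefore differed by shRNA, with BT-20 above MDA-MB-468 under control shRNA and below it under QPRT shRNA. JUND had the highest GC content of the 10, 69.7% over its transcripts.

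EGR1 (ENSG00000120738, chr5:138465490-138469315, plus strand), a zinc finger factor induced by ERK through the CArG boxes shown above, measured 129 and 105 FPKM in BT-20 against 202 and 229 in MDA-MB-468. Both MDA-MB-468 libraries were above both BT-20 libraries.

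DUSP1 (ENSG00000120129, chr5:172768090-172771195, minus strand) measured 84.6 and 50.9 FPKM in BT-20 against 30.4 and 36.9 in MDA-MB-468, control shRNA first. Both BT-20 libraries were above both MDA-MB-468 libraries. DUSP6 (ENSG00000139318, chr12:89347232-89353271, minus strand) had the reverse order, 2.13 and 4.90 FPKM in BT-20 against 10.4 and 10.1 in MDA-MB-468. The BT-20 values of DUSP6 rest on 39 and 92 fragments. An annotated antisense gene shares 40.5% of the exon bases of DUSP6 and was at most 0.0810 FPKM.

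Between the shRNAs in BT-20, 7 of the 10 genes were lower and 3 higher with QPRT shRNA. JUN and DUSP1 showed the largest negative differences and FOSL1 and DUSP6 the largest positive ones. With 1 library per line and shRNA there is no test within a line, and the intervals given here are 95% intervals on the fragment ratio by the exact Clopper-Pearson method, which cover counting error only. JUN with QPRT shRNA was 0.591 times its control level in BT-20, a log2 ratio of -0.76 with a counting interval of -0.84 to -0.68. DUSP1 was 0.602 times its control level, a log2 ratio of -0.73 with an interval of -0.84 to -0.62. FOSL1 was 1.98 times its control level, with the log2 interval running from 0.65 to 1.33, and DUSP6 2.30 times, with 0.64 to 1.78. On the log2(FPKM + 1) scale both FOSL1 and DUSP6 differed by 0.91, so 0 of the 10 genes reached 2-fold, where 1.70% of all tested genes did. Of all tested genes 43.0% were lower with QPRT shRNA in BT-20 (54.8% under upper quartile scaling, where 7 of the 10 were still lower), and the median difference was -0.23 for the 10 genes and 0.05 for all tested genes.

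In MDA-MB-468, 9 of the 10 genes were higher with QPRT shRNA, with DUSP6 the exception at a difference of -0.03. JUND with QPRT shRNA was 1.55 times its control level, a log2 ratio of 0.64 with a counting interval of 0.55 to 0.72. FOSB was 1.48 times its control level, a log2 ratio of 0.56 with an interval of 0.43 to 0.69. The differences of the other genes were smaller, between 0.04 for FOSL2 and 0.36 for FOSL1. None of the 10 (0) reached 2-fold, against 1.89% of all tested genes. Of all tested genes 51.5% were higher, and the median difference was 0.25 for the 10 genes and 0.01 for all tested genes.

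The genes that were lower in BT-20 and higher in MDA-MB-468 numbered 7, namely FOS, FOSL2, JUN, JUNB, JUND, EGR1 and DUSP1, where 24.8% of all tested genes had that pair of directions. DUSP6 had the opposite pair, though its counting interval in MDA-MB-468 spanned 0, at -0.33 to 0.27. FOSB and FOSL1 were higher with QPRT shRNA in both lines, though the counting interval of FOSL1 in MDA-MB-468 included 0. In FOSL2 the counting interval spanned 0 in both lines, at -0.13 to 0.04 and -0.06 to 0.15, and its direction in BT-20 was lost under scaling to TPM. The JUNB difference in MDA-MB-468 was 0.08 and its counting interval of the ratio began at 0.01.

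**Figure D2:**
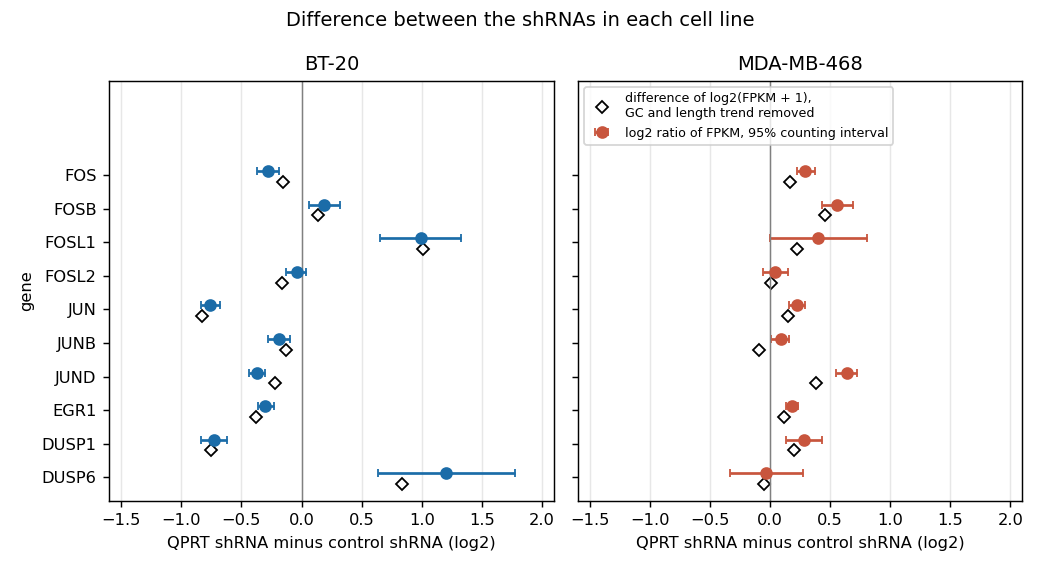
QPRT shRNA minus control shRNA (log2) for each gene in BT-20 (left) and MDA-MB-468 (right), filled points for the ratio of FPKM with exact 95% counting intervals and open diamonds for the difference of log2(FPKM + 1) with the trend on GC content and length removed. JUN and DUSP1 lie near -0.76 and -0.73 in BT-20 and to the right of 0 in MDA-MB-468.

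GC content moved with the shRNA difference, and in opposite directions in the lines. Over the tested genes, Spearman's rho across genes between the difference and the GC content of the transcripts was -0.283 in BT-20 against 0.288 in MDA-MB-468; genes share a library and are not independent replicates. With the tested genes cut into 10 equal parts by GC content, from the lowest to the highest part the median difference ran from 0.21 to -0.08 in BT-20 but from -0.13 to 0.17 in MDA-MB-468. The 10 genes had GC contents of 49.9% to 69.7%, all above the median of 49.5% over the tested genes. With a lowess trend on GC content and length removed, JUN differed by -0.83 in BT-20 against 0.15 in MDA-MB-468, and DUSP1 by -0.75 and 0.20. JUND went from -0.37 to -0.22 in BT-20 but from 0.63 to 0.38 in MDA-MB-468. FOS went from -0.28 to -0.15 and from 0.29 to 0.17. FOSL1 went from 0.91 to 1.01 in BT-20, and JUNB in MDA-MB-468 changed sign, from 0.08 to -0.09. After this step 6 of the 10 genes were lower in BT-20 and higher in MDA-MB-468, against 25.6% of all tested genes. What part GC content has in the remaining differences was not tested.

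**Figure D3:**
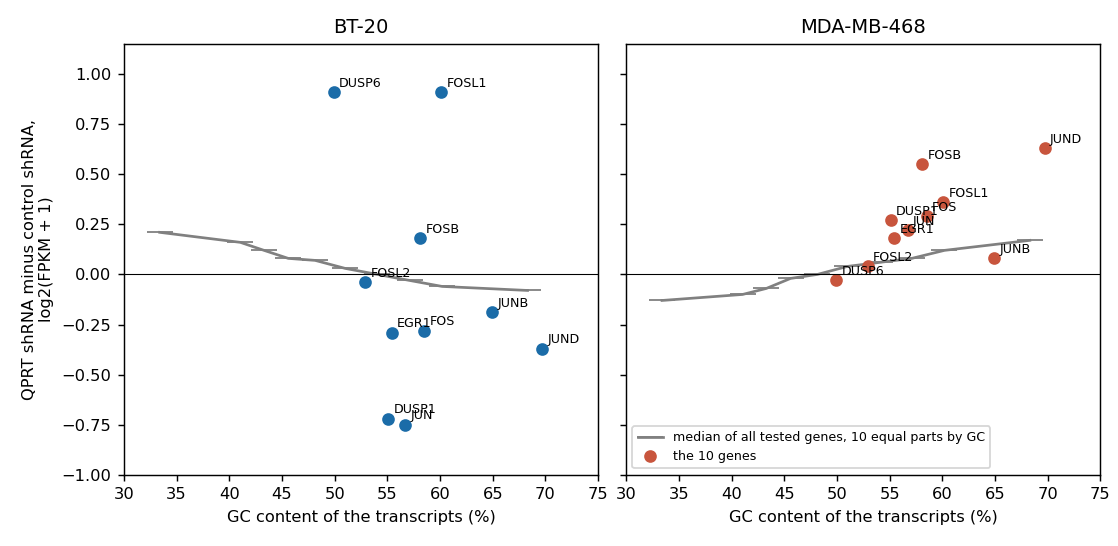
QPRT shRNA minus control shRNA in log2(FPKM + 1) against the GC content of the transcripts (%), with the median of all tested genes in each of 10 equal parts by GC content in grey and the 10 genes as points, for BT-20 (left) and MDA-MB-468 (right). The grey medians run from 0.21 to -0.08 in BT-20 but from -0.13 to 0.17 in MDA-MB-468, and JUN and DUSP1 lie well below them in BT-20.

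Over both lines together, limma with the line as a covariate called 0 of the 10 genes between the shRNAs, where 0.628% of all tested genes were called. Without adjustment, 687 of all 14321 tested genes and 1 of the 10 had p under 0.05. This was FOSL1, with a coefficient of 0.63 (SE 0.253) and an adjusted p of 0.610 in limma, and it was higher with QPRT shRNA in both lines. limma-voom on the recovered fragments also called 0. The limma fit on log2(FPKM + 1) has 1 residual degree of freedom per gene, so its SE came almost wholly from genes of similar level. It averages the lines, and opposite differences in the lines partly cancel in it. The coefficient was 0.01 for FOS, -0.06 for EGR1, -0.26 for JUN, -0.22 for DUSP1 and 0.44 for DUSP6. Whether the shRNA difference itself differed between the lines could not be tested with 1 library of each kind.

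Between the lines more of the 10 genes reached 2-fold than between the shRNAs. FOS, FOSB, FOSL1 and JUN, however, differed less between the lines with control shRNA than between the shRNAs in BT-20. The rest of the 10 differed more between the lines in that comparison. With control shRNA, 2 of the 10 genes were at least 2-fold apart, DUSP6 higher in MDA-MB-468 by 1.86 and DUSP1 lower by a difference of -1.45 on the log2(FPKM + 1) scale, where 31.6% of all tested genes were 2-fold apart. With QPRT shRNA, 2 were at least 2-fold apart, JUN and EGR1, both higher in MDA-MB-468 by 1.12, where 31.4% of all tested genes were. The line difference of JUN was 0.15 with control shRNA, and that of FOS went from 0.07 under control shRNA to 0.64 under QPRT shRNA. These small control differences of FOS and JUN changed sign under upper quartile scaling, to -0.09 and -0.01, so that 3 of the 10 were higher in MDA-MB-468 with control shRNA in place of 5. JUND differed by -0.88 with control shRNA and by 0.12 with QPRT shRNA.

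limma, with the shRNA as a covariate, called 6 of the 10 genes between the lines, against 55.1% of all tested genes. Those higher in MDA-MB-468 numbered 4. DUSP6 had a coefficient of 1.39 (SE 0.268) with an adjusted p of 1.13e-06 in limma, and EGR1 one of 0.89 (SE 0.195) with an adjusted p of 2.05e-05. JUN had 0.63 (SE 0.202, adjusted p 0.00419 in limma) and JUNB 0.51 (SE 0.197, adjusted p 0.0203). Those lower in MDA-MB-468 were DUSP1, at -0.95 (SE 0.212, adjusted p 2.73e-05 in limma), and FOSL2, at -0.66 (SE 0.211, adjusted p 0.00418). FOS, FOSB, FOSL1 and JUND were not called, with coefficients of 0.35, 0.04, -0.49 and -0.38 and adjusted p between 0.0787 and 0.887 in limma. With no minimum level limma called 3 of the 10, FOSL2, EGR1 and DUSP6, and 20.0% of all genes. The libraries of a line are the same cells under different shRNAs rather than separate samples of a group, so these p-values do not measure spread between samples of a line. Here too the SE came almost wholly from genes of similar level, and hardly reflects how well a gene's own libraries matched. JUN, with line differences of 0.15 and 1.12, had an SE of 0.202. FOSL2, with -0.70 and -0.62, had 0.211.

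**Figure D4:**
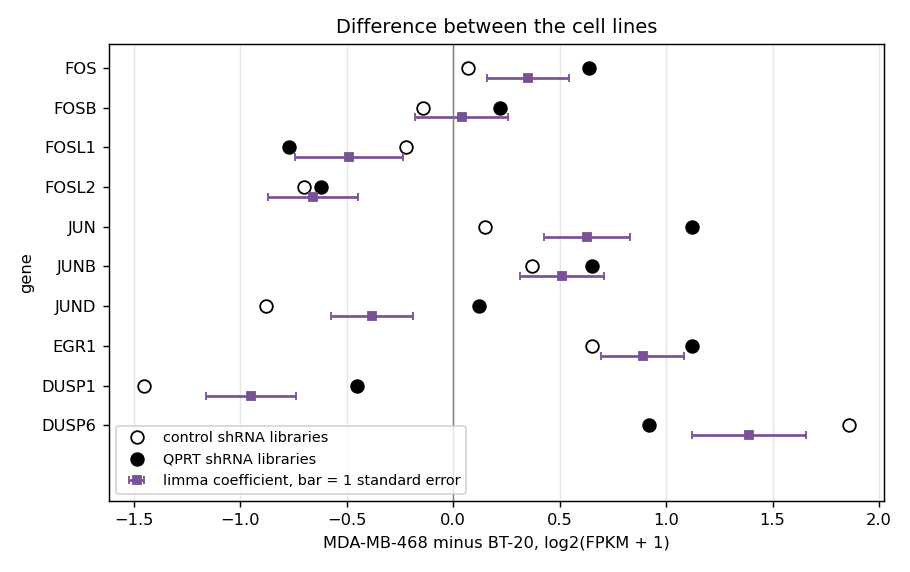
MDA-MB-468 minus BT-20 in log2(FPKM + 1) for each gene, open circles for the control shRNA libraries, filled circles for the QPRT shRNA libraries and squares for the limma coefficient with 1 standard error. JUN lies at 0.15 and 1.12 and JUND at -0.88 and 0.12, while the circles of FOSL2 lie close together at -0.70 and -0.62.

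The make-up of the AP-1 families differed between the libraries. FOS supplied 67.6% of the summed FPKM of the 4 FOS family genes in BT-20 with control shRNA and 60.8% with QPRT shRNA, and 75.1% and 74.9% in MDA-MB-468. FOSL1 supplied 2.62% and 5.69% in BT-20 against 2.35% and 2.52% in MDA-MB-468. FOSL2 supplied 19.3% and 20.4% in BT-20 against 12.4% and 10.4% in MDA-MB-468. The family sum was 322, 295, 304 and 374 FPKM in the same order of libraries.

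Within the JUN family JUND supplied 59.4% and 60.2% of the summed FPKM in BT-20 against 39.5% and 47.8% in MDA-MB-468, control shRNA first. JUN supplied 18.0% and 13.9% in BT-20 against 24.5% and 22.4% in MDA-MB-468. JUNB supplied 22.6% and 25.9% in BT-20 against 36.0% and 29.8% in MDA-MB-468. The family sum was 481, 368, 392 and 502 FPKM. Dividing by the longest transcript in place of the mean length lowered the share of FOS in BT-20 with control shRNA to 62.4% and that of JUND to 48.1%, and in MDA-MB-468 with control shRNA put JUNB at 42.1% above JUND at 29.3%. These are mRNA shares, and no AP-1 protein or dimer was measured.

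**Figure D5:**
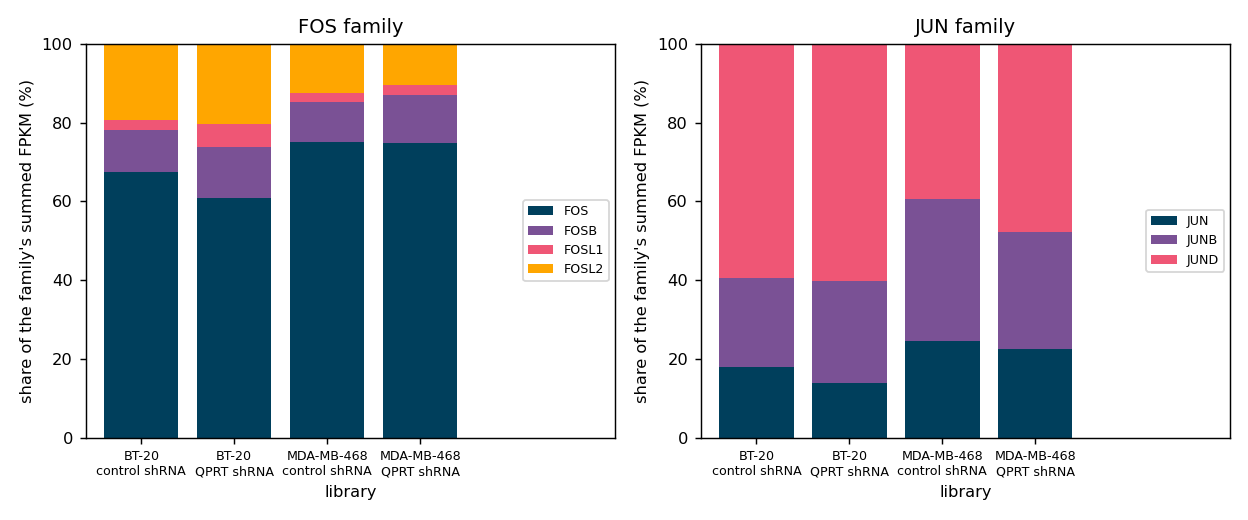
Share (%) of the summed FPKM of the FOS family (left) and of the JUN family (right) supplied by each gene in each library, as stacked bars. FOS makes up 60.8% to 75.1% of its family, and the JUND part is smaller in MDA-MB-468 (39.5% and 47.8%) than in BT-20 (59.4% and 60.2%).

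Of 31 other immediate early genes, 26 passed the minimum level. limma called 15 of them higher and 1 lower in MDA-MB-468, where it called 4397 higher and 3496 lower of the 14321 genes tested (55.1% in all). The list had a median coefficient of 0.66 against 0.10 over all tested genes. IER3, a stress-induced survival gene, measured 77.2 and 76.0 FPKM in BT-20 against 389 and 519 in MDA-MB-468. IER5 measured 19.3 and 20.0 FPKM in BT-20 against 101 and 88.6 in MDA-MB-468, and the kinase gene PLK3 3.45 and 4.76 against 15.4 and 17.7. CCN2, a matricellular protein gene, was near 0 in BT-20 (0.0403 and 0.0392 FPKM) but at 43.5 and 67.7 FPKM in MDA-MB-468. Between the shRNAs limma called 0 of the 26, against 0.628% of all tested genes. An unadjusted p under 0.05 was reached by 0 of the 26 and by 687 of all 14321 tested genes. With QPRT shRNA 14 of them were higher in BT-20 against 15 in MDA-MB-468, where 56.4% and 51.5% of all tested genes were higher.

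The ERK output and feedback genes, which growth factor signalling induces and many of which damp it, numbered 17, all above the minimum level. With QPRT shRNA 12 of them were higher in BT-20, where 56.4% of all tested genes were, at a median difference of 0.30 (0.05 over all tested genes). In MDA-MB-468 9 were higher, where 51.5% of all tested genes were, at a median of 0.01. None (0) was called between the shRNAs by limma, against 0.628% of all tested genes. An unadjusted p under 0.05 was reached by 1 of the 17 and by 687 of all 14321 tested genes. EPHA4, an ephrin receptor gene, measured 0.851 and 2.61 FPKM in BT-20 against 14.5 and 15.4 in MDA-MB-468. The ETS factor gene ETV5 measured 50.0 and 67.5 FPKM in BT-20 against 23.7 and 21.0 in MDA-MB-468. Between the lines limma called 3 of the list higher and 7 lower in MDA-MB-468, where it called 55.1% of all tested genes. SPRY1, a feedback inhibitor of receptor tyrosine kinase signalling, was among the higher ones, at 2.28 and 2.62 FPKM in BT-20 against 22.1 and 21.9 in MDA-MB-468, and the neuropeptide gene VGF among the lower ones, at 15.1 and 14.9 against 2.09 and 3.18.

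Of 8 other MAP kinase phosphatase genes, among them DUSP4 and DUSP5 of the list above, 7 passed the minimum level, and 6 were higher with QPRT shRNA in BT-20 against 5 in MDA-MB-468, where 56.4% and 51.5% of all tested genes were. limma called 0 of the 7 between the shRNAs, against 0.628% of all tested genes. An unadjusted p under 0.05 was reached by 1 of the 7 and by 687 of all 14321 tested genes. Between the lines it called 2 higher and 1 lower in MDA-MB-468, against 55.1% of all tested genes. DUSP5, a nuclear ERK phosphatase, measured 26.2 and 40.7 FPKM in BT-20 against 25.1 and 29.8 in MDA-MB-468. DUSP4 measured 44.1 and 62.8 FPKM in BT-20 against 36.2 and 27.7 in MDA-MB-468. DUSP2 measured 0.382 and 1.04 FPKM in BT-20 against 4.97 and 11.1 in MDA-MB-468, and DUSP7 1.79 and 2.49 against 3.37 and 5.36.

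Among 11 tested bZIP partners of FOS and JUN, limma called 2 higher and 4 lower in MDA-MB-468, where it called 55.1% of all tested genes. Between the shRNAs it called 0 of the 11, against 0.628% of all tested genes. BATF, which pairs with JUN proteins, measured 86.8 and 67.4 FPKM in BT-20 against 31.1 and 33.5 in MDA-MB-468. The small MAF genes went both ways, with MAFG at 46.5 and 45.7 FPKM against 21.2 and 19.1 and MAFF at 16.6 and 23.9 against 36.0 and 39.0. MAF was low, at 2.23 and 2.74 FPKM in BT-20 against 0.374 and 0.227 in MDA-MB-468.

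Of 24 genes of ERK, JNK and SRF signalling, which act upstream of the 10, limma called 6 higher and 9 lower in MDA-MB-468. It called 55.1% of all tested genes there. Between the shRNAs it called 0 of the 24, against 0.628% of all tested genes. An unadjusted p under 0.05 in that fit was reached by 1 of them, and by 687 of all 14321 tested genes. MAP2K2, the kinase MEK2 that phosphorylates ERK, measured 432 and 316 FPKM in BT-20 against 135 and 140 in MDA-MB-468. ELK3, an ETS factor that works with SRF, measured 13.7 and 23.1 FPKM in BT-20 against 4.67 and 7.54 in MDA-MB-468. RPS6KA2, an ERK-activated kinase gene, measured 13.2 and 12.9 FPKM against 43.7 and 39.7, and the JNK gene MAPK10 6.18 and 6.32 against 0.380 and 0.805.

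Of 19 genes with known AP-1 sites 10 passed the minimum level. limma called 6 of them higher and 2 lower in MDA-MB-468, where it called 55.1% of all tested genes. Between the shRNAs it called 0 of the 10, against 0.628% of all tested genes. PLAU, the urokinase gene, measured 0.296 and 0.144 FPKM in BT-20 against 18.8 and 21.2 in MDA-MB-468. IVL, a keratinocyte envelope gene, had the other order, at 21.6 and 20.8 FPKM in BT-20 against 4.71 and 1.98 in MDA-MB-468. The chemokine gene CXCL8 measured 1.03 and 2.75 FPKM in BT-20 against 9.58 and 8.42 in MDA-MB-468, and VIM, a mesenchymal filament gene, 1.87 and 2.14 against 9.19 and 9.88. With QPRT shRNA 7 of the 10 were higher in BT-20 against 5 in MDA-MB-468, where 56.4% and 51.5% of all tested genes were. Among the genes below the minimum level, MMP3, MMP9 and MMP10 were listed at 0 in all 4 libraries. MMP1 was at most 0.185 FPKM and MMP13 at most 0.155.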

How the data were processed

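The authors sequenced RNA of the BT-20 and MDA-MB-468 lines under control or QPRT shRNA on an Illumina NovaSeq system and trimmed the reads. The values deposited by the authors are FPKM per Ensembl gene. The submitters' processing notes name FastQC, MultiQC, CASAVA, TopHat2 2.0.12 and HTSeq 0.6.1. The genome build, annotation and strand setting are not given in the sources used here. Libraries were mapped to groups by their labels.

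Fragments were recovered as whole numbers (within 0.02) from FPKM, library scale and mean GENCODE 29 transcript length, in all 4 libraries for 84.4% of the tested genes. The library scale, estimated from the FPKM values, implied 10321998 to 10945948 fragments per library. Counting intervals are exact and fragments are not independent molecules. Symbols on several rows kept the one with the highest mean (27 rows dropped). Differences were taken on log2(FPKM + 1), which understates changes of low genes, for 14321 genes with a mean of at least 1 FPKM. limma 3.58.1 (R 4.3.3; eBayes with trend, Benjamini-Hochberg over those genes, threshold 0.05) was fitted on line and shRNA and tested on simulated data. The study's DESeq2 test was not run, since the deposited values are FPKM. The recovered fragments were used for limma-voom. Lowess trends (fraction 0.3) came from statsmodels 0.14.6, intervals from scipy 1.17.1, under Python 3.11.15, with matplotlib 3.10.9 for plots.

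The 10 genes, the lists and the alternatives were chosen with earlier results of these data known. All 10 genes are named, with QPRT, up to 4 genes per list by largest difference, and the markers that check the labels. Alternatives were a pseudocount of 0.1, upper quartile and TPM scaling, no minimum level, a minimum of 5 FPKM, trend removal, a 1.5-fold threshold and other limma fits; longest transcript length, for levels and family shares, was added after seeing the data.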

Additional observations from a re-analysis of the deposited data

Results flagged for a closer look

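For 6 of the 10 genes the QPRT shRNA library was below its control in BT-20 and above it in MDA-MB-468, with the counting interval on one side of 0 in each line. Of the 12088 tested genes with whole fragments in all libraries, 5.82% met the same criterion, which genes with more fragments meet at smaller differences. The values are differences of log2(FPKM + 1). FOS differed by -0.28 in BT-20 against 0.29 in MDA-MB-468, JUN by -0.75 and 0.22, and JUNB by -0.19 and 0.08. JUND differed by -0.37 in BT-20 against 0.63 in MDA-MB-468, EGR1 by -0.29 and 0.18, and DUSP1 by -0.72 and 0.27. Whether the lines differ in these effects was not tested, since each line has 1 library per shRNA. JUNB lost the pattern when the GC content and length trend was removed, at -0.13 and -0.09.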

How the results depend on the processing

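Over the 3 settings that can change a sign, 4 of 120 differences of the 10 genes did so: FOSL2 between shRNAs in BT-20 under TPM scaling, JUNB between shRNAs in MDA-MB-468 with the trend removed, and FOS and JUN between lines with control shRNA under upper quartile scaling. That scaling moved the median line difference of all tested genes with control shRNA from 0.123 to -0.021. The number of genes 2-fold apart between shRNAs in BT-20 was 0, and became 1 with a pseudocount of 0.1 (5.53% of all genes tested), 1 with TPM scaling (2.40%) and 1 with the trend removed (1.66%). At a threshold of 1.5-fold it was 4 in BT-20 (8.98% of all genes tested) against 1 in MDA-MB-468 (9.17%), and between lines 5 with control shRNA (54.1%) and 7 with QPRT shRNA (53.0%). limma called 3 of the 10 genes between lines with no minimum level, where 20.0% of all genes were called, and the cause was not tested. Over 9 other fits FOSL2, EGR1 and DUSP6 were called between lines in 9, DUSP1 in 8, JUN in 7 and JUNB in 6, and 0 of the 10 genes between shRNAs in any of them. The shRNA fit already compares the shRNAs within each line, and the labels carry no replicate numbers for any other block. Leaving out a library was not run, since it leaves no residual degrees of freedom. Depth limits FOSL1 and DUSP6 most, with as few as 94 and 39 fragments.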
